A study of Macaca mulatta with 8 samples.

Results

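Transcripts of 10 immediate early transcription factors were followed in primary rhesus macaque microglia: FOS, FOSB, FOSL1, FOSL2, JUN, JUNB and JUND of the AP-1 family, and EGR1, EGR2 and EGR3 of the EGR family. They were found by gene symbol in the count tables, where each matched 1 of 35432 genes, and all 10 are among the 12131 genes with enough counts to be tested. The cells came from subcortical white matter of the adult donors R07110, R12016, R02046 and R14143, aged 6 to 19 years, and were cultured for 8 days with M-CSF. From each donor, 1 culture received 10 µg/mL uLPS, a TLR4 agonist, and 1 received 5 µM MRS2578, a P2RY6 antagonist, 1 h before the same dose of uLPS. RNA was collected 16 h after uLPS, which gave 4 libraries with uLPS and 4 with uLPS and MRS2578. No untreated library and no library with MRS2578 alone was analysed here, so all levels below are levels under uLPS, and an earlier peak of these rapidly induced transcripts lies outside the time sampled.

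Total counts per library ran from 9231109 to 32790348. Of 14 microglial markers, 13 were listed. Their summed level ran from 4250 to 5602 CPM (counts scaled to a common library total, adjusted here by edgeR's TMM method) over the 8 libraries. The homeostatic markers TMEM119 and CX3CR1 were at no more than 0.316 and 2.21 CPM, while P2RY12, another homeostatic marker, was at 5.70 to 13.3 CPM. The 7 lymphocyte markers summed to at most 0.759 CPM, with NKG7 at 0 in every library. P2RY6, the receptor that MRS2578 blocks, was at 49.5 to 110 CPM. The labels of 1 donor are in doubt. Of the 8 CPM columns published for these libraries, 6 match the library of the same donor and condition, while the 2 columns of R02046 match the library of R02046 with the opposite label. The comparisons below are therefore given with the deposited labels, with the 2 libraries of R02046 exchanged, and without R02046. Which assignment is right cannot be told from the labels.

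FOS and JUN proteins bind DNA as AP-1 dimers. JUN proteins can pair with each other or with FOS proteins, whereas FOS proteins need a JUN partner. EGR proteins are zinc finger factors that bind GC-rich sites, and NAB1 and NAB2 are their co-repressors. The genes are called immediate early because many of them are transcribed within minutes of a stimulus without new protein synthesis: MAP kinases act on serum response factor and its partners at CArG boxes, and on CREB and ATF factors at cyclic AMP response elements. In macrophages and microglia these factors act downstream of Toll-like receptors together with NF-kB. P2RY6 is a receptor for extracellular UDP that signals through calcium release.

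The 10 genes lie on 8 chromosomes of the macaque assembly Mmul_10. JUN, JUNB and JUND have 1 exon each, EGR1, EGR2 and EGR3 have 2, and the FOS family genes have 4. The promoter windows of FOSB, JUN, EGR1 and EGR2 are shown because FOSB had the largest difference between conditions and JUN was about 2-fold higher with MRS2578 in 2 donors, while EGR2 had the lowest log2 fold change and shares a CArG box of the same letters with EGR1. Each window is the 250 bases before the start of the gene in NCBI's RefSeq annotation of Mmul_10, written 5′ to 3′ on the gene's strand. Capitals mark a TATA box in FOSB, the core of a heat shock element in JUN and CArG boxes in EGR1 and EGR2. The windows are chr19:45527435-45527684 for FOSB, chr1:165651162-165651411 for JUN, chr6:135873832-135874081 for EGR1 and chr9:75153879-75154128 for EGR2, all on the plus strand.
FOSB: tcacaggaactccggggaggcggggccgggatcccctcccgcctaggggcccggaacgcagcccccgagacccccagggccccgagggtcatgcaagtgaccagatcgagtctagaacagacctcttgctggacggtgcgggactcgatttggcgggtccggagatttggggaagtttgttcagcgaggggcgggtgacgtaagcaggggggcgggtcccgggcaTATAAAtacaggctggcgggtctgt
JUN: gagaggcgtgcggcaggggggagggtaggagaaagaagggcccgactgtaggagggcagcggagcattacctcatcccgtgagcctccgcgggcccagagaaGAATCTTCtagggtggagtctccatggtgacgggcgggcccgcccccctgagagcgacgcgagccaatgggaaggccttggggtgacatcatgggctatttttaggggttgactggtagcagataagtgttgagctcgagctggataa
EGR1: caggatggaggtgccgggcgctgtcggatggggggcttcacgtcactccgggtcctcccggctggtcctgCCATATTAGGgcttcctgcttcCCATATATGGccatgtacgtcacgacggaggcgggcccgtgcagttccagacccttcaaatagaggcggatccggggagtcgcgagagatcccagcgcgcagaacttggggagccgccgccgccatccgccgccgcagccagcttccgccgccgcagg
EGR2: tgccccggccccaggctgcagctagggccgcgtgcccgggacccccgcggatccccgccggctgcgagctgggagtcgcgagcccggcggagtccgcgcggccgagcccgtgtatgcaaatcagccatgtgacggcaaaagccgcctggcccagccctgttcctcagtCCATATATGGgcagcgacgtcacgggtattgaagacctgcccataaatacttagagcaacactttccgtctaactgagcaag

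CArG boxes, the serum response factor motif, were present in the windows of all 3 EGR genes and in none of the 6 AP-1 windows searched, against 1.02% of 20782 protein-coding promoters. EGR1 had 2, the nearer one beginning 158 bases before the start, and those of EGR2 and EGR3 began 82 and 76 bases before it. The TATA box, spelled TATAAA, stood 25 bases before the start of FOSB and 23 before that of JUNB, against 9.85% of promoters. The heat shock element core GAANNTTC was in the windows of JUN and FOSL2, against 5.18%, and the cyclic AMP response element TGACGTCA in that of JUND, against 1.47%. Both strands were searched, and the motifs do not overlap each other in these windows. No window held the AP-1 site TGACTCA, the EGR site GCGTGGGCG, the NFAT core TGGAAA or an NF-kB site, which 3.07%, 0.722%, 17.1% and 4.93% of promoters hold. Other spellings of the AP-1 site and the cyclic AMP response element were not searched. The JUN window holds TGACATCA and the FOSB window TGACGTAA. The annotated FOS model begins at the start codon, so no promoter window was taken for it. These letters describe the windows and say nothing about factor binding in these cells.

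JUN family transcripts were the most abundant of the 10 on a scale per length. The mean level over the 8 libraries was 70.0 ± 20.9 CPM per kb of annotated exon for JUNB (SD, n = 8), 64.6 ± 26.4 for JUN and 27.6 ± 6.44 for JUND. FOSL2 followed at 22.2 ± 5.80 and FOSL1 at 10.8 (6.53 to 13.4 over the 8 libraries), and FOS had 18.2 ± 12.1 per kb of coding length, since its model holds no UTRs and its place in this order is uncertain. EGR1 was at 6.49 ± 2.07, EGR2 at 1.75 ± 1.01, FOSB at 1.08 ± 1.80 and EGR3 at 0.394 ± 0.252 CPM per kb. With FOS set aside, the values of neighbours in this order overlapped between libraries except at 3 steps: every library had more JUN than JUND per kb, more FOSL2 than FOSL1, and more EGR1 than EGR2. The lengths are NCBI's, whereas the reads were counted on Ensembl genes.

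**Figure D1:**
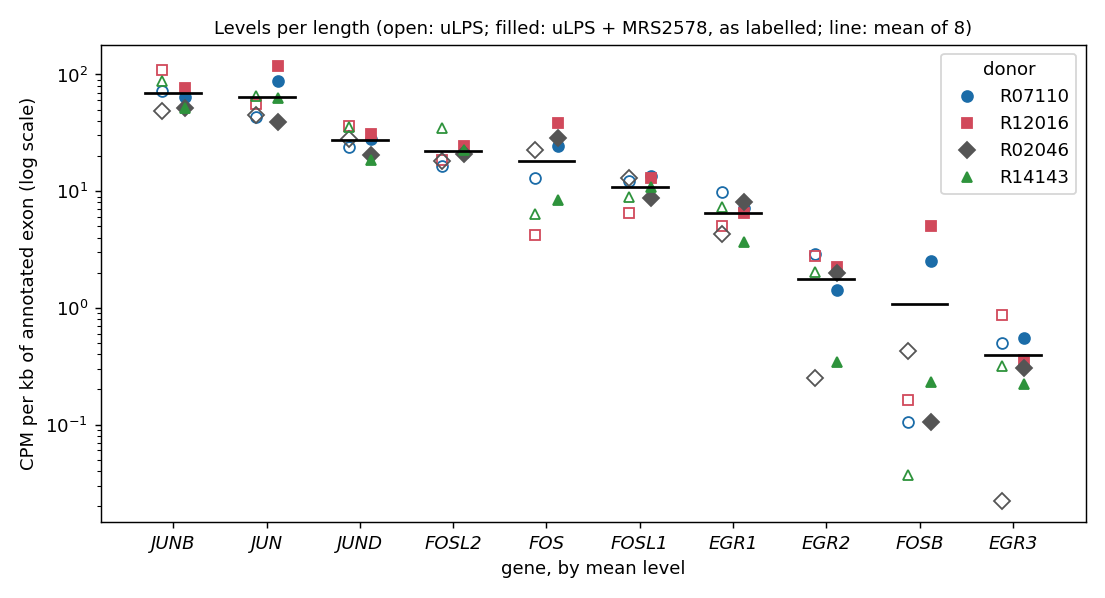
Levels of the 10 transcripts in CPM per kb of annotated exon on a log axis, with 1 point per library (open, uLPS; filled, uLPS and MRS2578 as labelled), the shape and colour giving the donor and the line the mean of 8 libraries. JUNB and JUN stand highest, and FOSB spreads the most, from 0.0368 to 5.04 CPM per kb.

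The transcripts differed greatly in how much they varied. FOSB spanned 137-fold between its lowest and highest library in CPM, EGR2 11.6-fold and FOS 9.06-fold. EGR3 spanned 38.9-fold, but its lowest value rests on 1 read, and at the limit of 3 reads in that library, 0.325 CPM, the span is 12.8-fold. The other 6 spanned from 1.95-fold in JUND to 3.02-fold in JUN. A span above 10-fold, as in 3 of the 10, was found in 6.53% of all tested genes.

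**Figure D2:**
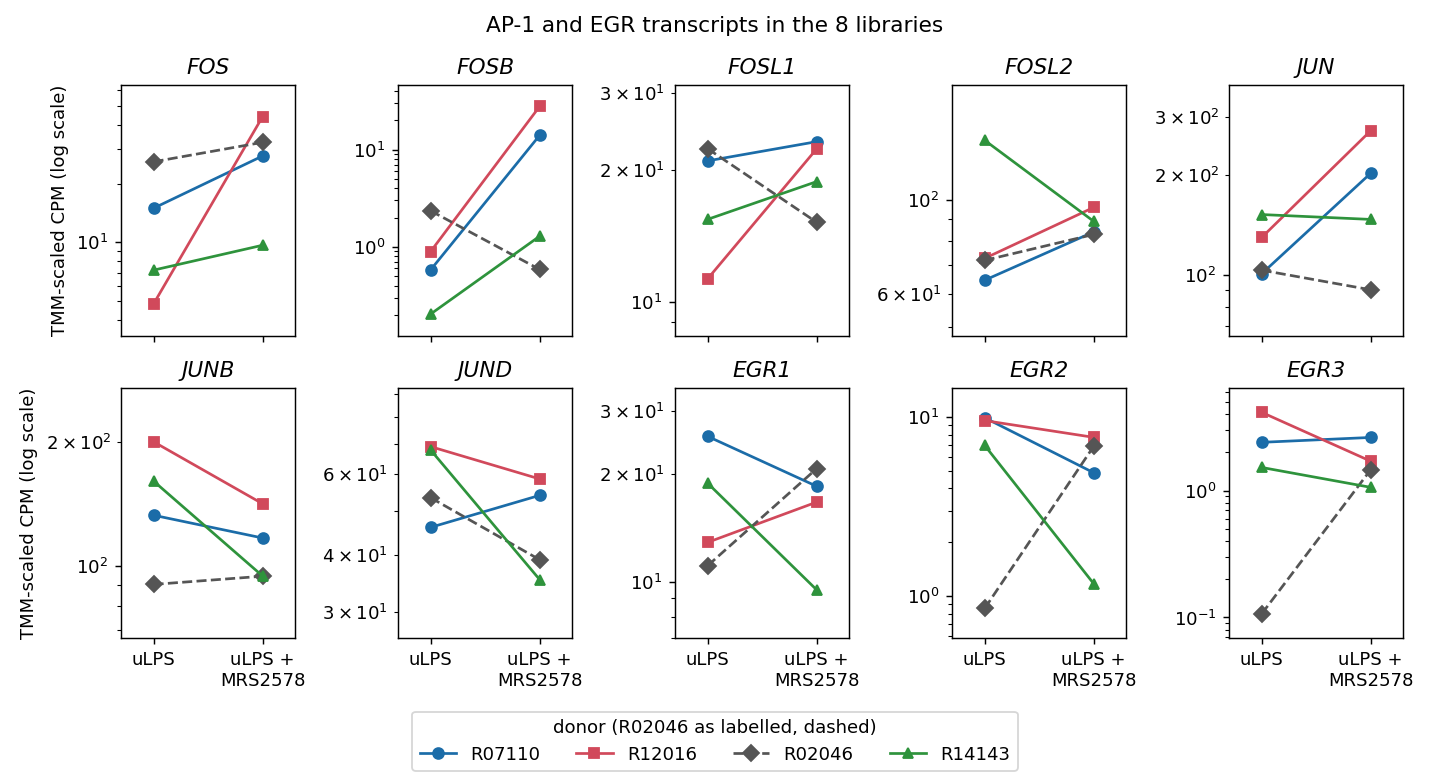
Each panel shows 1 transcript in TMM-scaled CPM on a log axis of its own, with uLPS on the left, uLPS and MRS2578 on the right and a line joining the libraries of a donor (R02046 dashed, as labelled). FOS lines slope upward in all 4 donors, and FOSB lines slope upward steeply in 3 and downward in R02046.

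FOSB had the largest difference between the conditions of the 10 transcripts. In these bulk libraries, a change in the RNA per cell cannot be told apart from a change in the share of cells that carry it. FOSB is a FOS family protein known from neurons, where a truncated form accumulates on repeated stimulation, and its gene is at chr19:45527685-45534869 on the plus strand. With uLPS it was at 0.579 CPM in donor R07110, 0.894 CPM in R12016, 2.35 CPM in R02046 and 0.203 CPM in R14143, from 19, 14, 22 and 4 reads. With uLPS and MRS2578 it was at 14.0, 27.8, 0.585 and 1.29 CPM in the same order of donors, from 347, 440, 8 and 23 reads. The libraries of R07110 and R12016 with MRS2578 stood far above the other 6, and in 3 donors the library with MRS2578 was the higher one, while R02046 went the other way as labelled. The ratio within an animal was 24.2 in R07110 (95% interval from counting error only, 15.3 to 40.8), 31.1 in R12016 (18.4 to 57.4), 0.249 in R02046 (0.0959 to 0.581) and 6.33 in R14143 (2.16 to 25.2). All 4 intervals exclude 1.

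With the deposited labels, FOSB had a log2 fold change of 3.25 ± 1.02 (SE) for MRS2578, with an unadjusted p of 0.0152 and an adjusted p of 0.877 by edgeR's quasi-likelihood test, fitted with a term for each donor and adjusted by Benjamini-Hochberg over all tested genes. None of the 10 transcripts passed an adjusted p of 0.05 with these labels by this test, by edgeR's likelihood ratio test or by DESeq2's Wald test. The background is 0% of the 12131 genes by the same test, 624 of which had an unadjusted p under 0.05, and the smallest adjusted p of any gene was 0.877. With the libraries of R02046 exchanged, FOSB rose with MRS2578 by a log2 fold change of 4.25 ± 0.42, with an adjusted p of 0.0212 by edgeR, and had the smallest p of all 12131 genes. It was the only 1 of the 10 transcripts called, where 0.618% of all tested genes were called in either direction and 0.0989% were raised. Without R02046 the log2 fold change was 4.56 ± 0.37 with an adjusted p of 0.0652 by edgeR, again the smallest p of all genes tested, and FOSB did not pass the threshold. With R02046 exchanged, the call was lost without R07110 (log2 fold change 3.91, adjusted p = 0.251 by edgeR), without R12016 (3.88, 0.0612) and without the block (4.38, 0.807). It was kept without R14143 (4.40, 0.00305), by edgeR's likelihood ratio test (3.80, 3.28e-11) and by DESeq2's Wald test (3.76, 2.17e-10). In the same order, these fits called 7.58%, 5.08% and 5% of all tested genes. With the labels, leaving out a donor other than R02046 gave log2 fold changes of 2.32 to 3.18, none of them called.

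The FOSB levels of the 2 conditions overlapped with the deposited labels and did not overlap with R02046 exchanged, where the highest uLPS library had 0.894 CPM and the lowest library with MRS2578 1.29 CPM. Groups that did not overlap, with MRS2578 higher, were found for 0.668% of all tested genes with the labels and 1.41% with R02046 exchanged. None of the other 9 transcripts had groups that did not overlap under either assignment, with groups that had MRS2578 lower found for 0.412% and 1.56% of all tested genes. FOSB lay near its counting limit in several libraries, since 3 reads are 0.0915 CPM in the deepest library and 0.325 CPM in the shallowest, and its low values in R14143 and R02046 rest on 4 and 8 reads.

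FOS, the founding member of the family and the classical immediate early gene, was the only 1 of the 10 with a higher level with MRS2578 in 4 of 4 donors as labelled. With uLPS it was at 15.0 CPM in R07110, 4.85 CPM in R12016, 25.8 CPM in R02046 and 7.22 CPM in R14143. With uLPS and MRS2578 it was at 27.7, 44.0, 32.5 and 9.67 CPM in the same order. The groups overlapped, since R02046 with uLPS alone lay above R14143 with MRS2578. The within-animal ratio was 1.85 in R07110, 1.26 in R02046 and 1.34 in R14143, but 9.06 in R12016. With the labels, a difference above 0 in all 4 donors was found in 6.43% of all tested genes. With R02046 exchanged, FOS was higher with MRS2578 in 3 of 4 donors, while FOSB and FOSL1 were higher in 4 of 4. The share of all tested genes was not computed for that assignment. The log2 fold change of FOS was 1.14 ± 0.46 with the labels, with an unadjusted p of 0.0419 and an adjusted p of 0.877 by edgeR. It was 0.96 ± 0.47 with R02046 exchanged (adjusted p = 0.363 by edgeR) and 1.43 ± 0.51 without R02046 (0.319). R12016 set much of its size: without that donor the log2 fold change with the labels was 0.56, and with R02046 exchanged it was 0.35.

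FOSL1 and FOSL2, which code for FRA-1 and FRA-2, lack the strong transactivation domain of FOS. FOSL1 was at 21.0, 11.3, 22.4 and 15.4 CPM with uLPS in R07110, R12016, R02046 and R14143, and at 23.3, 22.4, 15.2 and 18.8 CPM with MRS2578. It was higher with MRS2578 in 3 donors and lower in R02046 as labelled, and its log2 fold change of 0.22 ± 0.23 with the labels was smaller than its error. With R02046 exchanged it was 0.48 ± 0.16, with an unadjusted p of 0.0164 and an adjusted p of 0.193 by edgeR, and without R02046 it was 0.46 ± 0.19 (adjusted p = 0.383 by edgeR).

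FOSL2 was the most abundant FOS family transcript in CPM per kb of those with a full gene model. It was at 64.6, 72.7, 71.9 and 138 CPM with uLPS in the same order of donors, and at 84.0, 95.9, 82.8 and 88.9 CPM with MRS2578. FOSL2 was higher with MRS2578 in R07110, R12016 and R02046 as labelled and lower in R14143, whose uLPS library stood above the other 7. That library also had the highest summed level of 5 fibroblast markers, all 5 of which are listed, 1191 CPM against 90.2 to 530 CPM in the other 7, and their part in the FOSL2 level was not tested. The log2 fold change of FOSL2 was 0.09 ± 0.18 with the labels, −0.01 ± 0.17 with R02046 exchanged and 0.05 ± 0.22 without R02046, each smaller than its error. R14143 set this: without that donor it was 0.32 ± 0.11 with the labels (unadjusted p = 0.0311, adjusted p = 0.974 by edgeR) and 0.19 ± 0.13 with R02046 exchanged (adjusted p = 0.385).

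JUN, a partner through which FOS proteins can reach DNA, was about 2-fold higher with MRS2578 in R07110 and R12016 and slightly lower in R02046 and R14143. With uLPS it was at 101 CPM in R07110, 130 CPM in R12016, 103 CPM in R02046 and 152 CPM in R14143. With MRS2578 it was at 202, 272, 90.2 and 147 CPM. The within-animal ratio was 2.01 in R07110 (95% counting interval 1.92 to 2.10), 2.10 in R12016 (1.99 to 2.21), 0.873 in R02046 (0.802 to 0.951) and 0.967 in R14143 (0.917 to 1.02). R07110 and R12016 are also the donors with the highest FOSB with MRS2578 as labelled. The log2 fold change of JUN was 0.46 ± 0.24 with the labels (adjusted p = 0.877 by edgeR), 0.56 ± 0.19 with R02046 exchanged (0.208) and 0.68 ± 0.23 without R02046 (0.306). With the labels it was 0.27 without R07110 and 0.26 without R12016. With R02046 exchanged and R14143 left out, JUN passed the threshold, at 0.76 ± 0.16 with an adjusted p of 0.0311 by edgeR, in a fit that called 7.58% of all tested genes. In Mmul_10 the JUN gene shares exon bases with an uncharacterised gene on the opposite strand, LOC100424766, and the strand setting of the counting is not given in the sources used here, so reads of the pair may not be told apart.

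JUNB and JUND were lower with MRS2578 in 3 of 4 donors as labelled, though not in the same donors. JUNB is a weaker activator than JUN that can oppose it, and JUND is the JUN family member usually present in resting cells. JUNB was at 133, 200, 90.2 and 161 CPM with uLPS and at 117, 142, 94.4 and 94.5 CPM with MRS2578, in the order R07110, R12016, R02046 and R14143. It was lower with MRS2578 in all 3 donors other than R02046, where 19.8% of all tested genes were lower in those 3. Its log2 fold change was −0.35 ± 0.15 with the labels, with an unadjusted p of 0.0493 and an adjusted p of 0.877 by edgeR. It was −0.38 ± 0.12 with R02046 exchanged (adjusted p = 0.188 by edgeR) and −0.48 ± 0.13 without R02046 (0.233). Without R14143 it was −0.21 with the labels and −0.26 with R02046 exchanged.

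JUND was at 46.0, 69.0, 53.4 and 67.8 CPM with uLPS and at 54.0, 58.6, 39.1 and 35.3 CPM with MRS2578. R07110 was the donor in which it was higher with MRS2578, and R14143 had the largest decrease, to a ratio of 0.521. Its log2 fold change was −0.35 ± 0.18 with the labels (adjusted p = 0.877 by edgeR), −0.13 ± 0.21 with R02046 exchanged (0.816) and −0.31 ± 0.22 without R02046 (0.601).

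**Figure D3:**
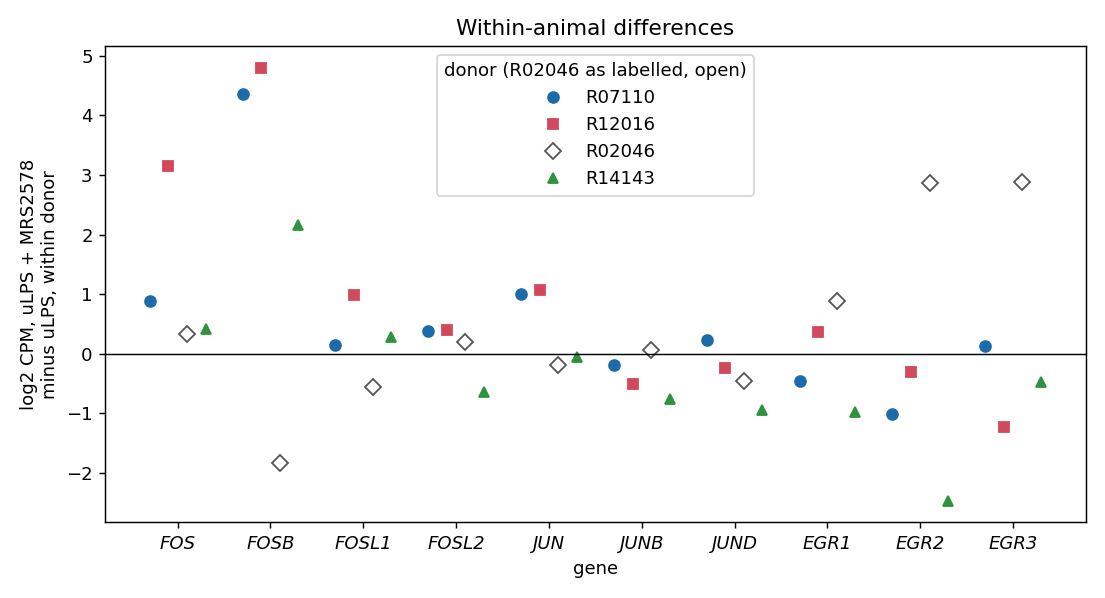
Within-animal difference in log2 CPM (prior count 2), uLPS and MRS2578 minus uLPS, with 1 point per donor (R02046 open, as labelled) and a line at 0. FOSB reaches 4.37 in R07110 and 4.80 in R12016 but is −1.83 in R02046, and EGR2 and EGR3 are at 2.86 and 2.88 in R02046 and at 0.12 or lower in the other donors.

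None of the 3 EGR transcripts moved in 1 direction in all 4 donors as labelled. With R02046 exchanged, EGR2 was lower with MRS2578 in all 4 donors, as was JUNB, while EGR1 and EGR3 were each higher in 1. EGR1, an early sensor of growth and stress signals, was at 25.5 CPM in R07110, 12.9 CPM in R12016, 11.1 CPM in R02046 and 18.9 CPM in R14143 with uLPS. With MRS2578 it was at 18.5, 16.7, 20.7 and 9.51 CPM. It was lower in R07110 and R14143 and higher in R12016 and R02046, and its log2 fold change was −0.06 ± 0.30 with the labels (adjusted p = 0.986 by edgeR), −0.49 ± 0.22 with R02046 exchanged (0.325) and −0.37 ± 0.26 without R02046 (0.596).

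EGR2, a zinc finger factor known in Schwann cells and in macrophage and T cell activation, divided R02046 from the other donors. With uLPS it was at 9.93, 9.57, 0.854 and 6.96 CPM in R07110, R12016, R02046 and R14143, from 326, 150, 8 and 137 reads. With MRS2578 it was at 4.89, 7.72, 6.88 and 1.17 CPM, from 121, 122, 94 and 21 reads. The R02046 library labelled uLPS stood far below the other uLPS libraries. The ratio was 0.493 in R07110 (95% counting interval 0.397 to 0.609), 0.806 in R12016 (0.629 to 1.03), 8.05 in R02046 (3.92 to 19.2) and 0.169 in R14143 (0.101 to 0.268). Its log2 fold change was −0.49 ± 0.67 with the labels (adjusted p = 0.934 by edgeR), −1.32 ± 0.37 with R02046 exchanged (0.147) and −1.12 ± 0.39 without R02046 (0.308). With R02046 exchanged, the adjusted p was 0.011 by edgeR's likelihood ratio test and 0.00568 by DESeq2's Wald test, where these tests called 5.08% and 5% of all tested genes.

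EGR3, a relative of EGR2, was the scarcest of the 10. It was at 2.41, 4.15, 0.107 and 1.52 CPM with uLPS, from 79, 65, 1 and 30 reads, and at 2.63, 1.71, 1.46 and 1.06 CPM with MRS2578, from 65, 27, 20 and 19 reads. The R02046 library labelled uLPS was again the lowest, and its single read gives a ratio of 13.7 with a 95% counting interval of 2.19 to 568. The log2 fold change of EGR3 was −0.16 ± 0.50 with the labels (adjusted p = 0.973 by edgeR), −0.66 ± 0.39 with R02046 exchanged (0.444) and −0.49 ± 0.36 without R02046 (0.611).

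**Figure D4:**
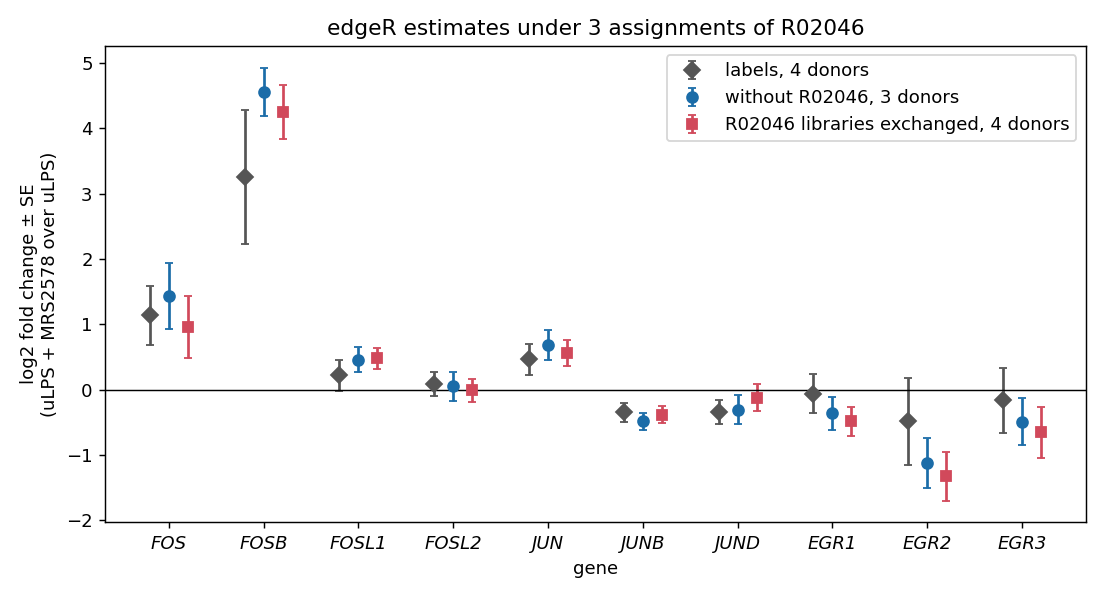
Log2 fold change of uLPS and MRS2578 over uLPS with its SE (bars) for each transcript by edgeR, with the deposited labels (4 donors), without R02046 (3 donors) and with the libraries of R02046 exchanged (4 donors). FOSB is highest in all 3 fits, at 3.25, 4.56 and 4.25, and EGR2 lies lowest, at −0.49, −1.12 and −1.32.

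At an unadjusted p of 0.05, FOS, FOSB and JUNB passed with the labels, 3 of 10 where 5.14% of all tested genes passed. With R02046 exchanged, 5 of 10 passed, FOSB, FOSL1 and JUN upward and JUNB and EGR2 downward, where 16.5% of all tested genes passed. The median log2 fold change of the 10 was 0.01 with the labels and −0.07 with R02046 exchanged, beside −0.01 and 0.00 over all tested genes, and with the labels 5 of the 10 fold changes were above 0 and 5 below. Without R02046, 5 of 10 passed, FOS, FOSB and JUN upward and JUNB and EGR2 downward, beside 13.6% of all tested genes. In the 3 donors other than R02046, FOS, FOSB and FOSL1 were higher with MRS2578 in each, and JUNB and EGR2 lower in each. That is 5 of 10 with 1 direction, where 36.8% of all tested genes had one, 17% upward and 19.8% downward.

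Across the 8 libraries the 10 levels were compared as a description, with no p, since the libraries of 1 donor share an animal. The Pearson correlation of log2 CPM over the 8 libraries was 0.83 between EGR2 and EGR3, 0.79 between JUNB and JUND and 0.77 between EGR1 and EGR2. EGR2 and EGR3 were both lowest in the R02046 library labelled uLPS, from 8 and 1 reads, and its part in their correlation was not tested. FOSB was most like JUN (0.76) and FOS (0.65), and FOS was like FOSL1 (0.70). Likeness also crossed the families, with JUNB like EGR2 (0.72) and EGR3 (0.68). FOS and JUNB ran opposite to each other (−0.56).

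**Figure D5:**
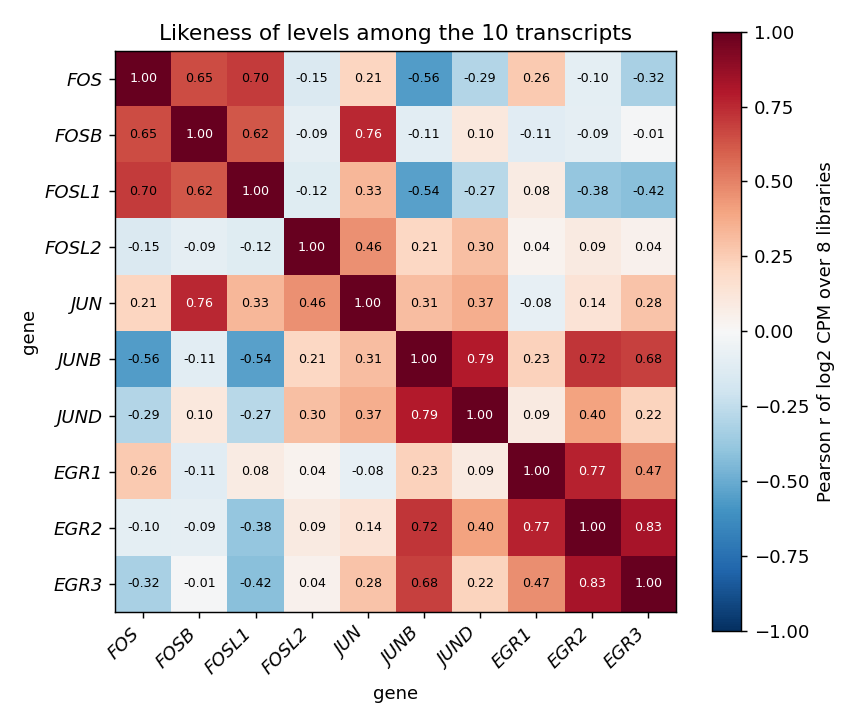
Pearson correlation of log2 CPM between each pair of the 10 transcripts over the 8 libraries, on a colour scale from −1 to 1 with the value in each cell. EGR2 with EGR3 is the highest pair at 0.83, and FOS with JUNB the lowest at −0.56.

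Of 9076 other genes with a mean of at least 5 CPM, the ones most like FOS over the 8 libraries were BAIAP2, MAPRE2 and CASS4, with a Pearson r of 0.964 to 0.978. Those most like FOSL2 were HSPG2, COL6A3 and AKAP12 (0.955 to 0.969), of which HSPG2 and COL6A3 code for extracellular matrix proteins. Those most like JUN were ZNF579, FRMD8 and JMY (0.973 to 0.978), and those most like EGR1 were KCTD17, CIZ1 and GPCPD1 (0.884 to 0.912). For FOSB and EGR2, which were added after their values were seen, they were DNAJA4, HSPB1 and PAQR3 (0.979 to 0.981) and EVI2B, MEF2A and ZNF83 (0.909 to 0.962). DNAJA4 and HSPB1 are heat shock proteins. These genes were picked as the highest of 9076 over 8 libraries, so a high r comes with the choice.

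The dimer partners and the signalling genes around these factors gave no call with the labels. Of 20 ATF, MAF, BATF and related partners tested, 0 passed an adjusted p of 0.05 by edgeR, and 3 were lower and 0 higher at an unadjusted p of 0.05, where 5.14% of all tested genes passed in either direction. These were ATF4, the stress response factor, with a log2 fold change of −0.65 ± 0.17, BATF2 with −0.80 ± 0.24 and ATF1 with −0.32 ± 0.12, each at an adjusted p of 0.877. With R02046 exchanged, NFE2L2, the oxidative stress factor NRF2, was the 1 partner called. It fell by 0.66 ± 0.10 on the log2 scale with an adjusted p of 0.039 by edgeR. In that fit 0.618% of all tested genes were called in either direction. At an unadjusted p of 0.05, 1 partner was higher and 7 lower, where 16.5% of all tested genes passed. NFE2L2 is named because it was the single call, after its values were seen. Of 23 upstream kinases and factors tested, 0 passed under either assignment by edgeR. At an unadjusted p of 0.05, 1 was higher and 0 lower with the labels, where 5.14% of all tested genes passed. With R02046 exchanged, 2 were higher and 4 lower, where 16.5% of all tested genes passed. The smallest unadjusted p values with the labels belonged to MAP2K3 (log2 fold change 0.47), MAP3K8 (−0.48) and MAP2K6 (−0.43). The EGR co-repressors NAB1 and NAB2 were at −0.06 ± 0.21 and 0.18 ± 0.12 with the labels, while EGR4 and WT1 had too few counts to be tested. With R02046 exchanged, NAB1 was at −0.41 ± 0.13 (adjusted p = 0.18 by edgeR) and NAB2 at 0.13 ± 0.12 (0.653). Without R02046 they were at −0.31 and 0.20.

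Other immediate early genes and known AP-1 or EGR targets likewise gave 0 calls of 20 and 0 of 19 tested with the labels, by edgeR. The immediate early genes with the smallest unadjusted p were IER3, BTG1 and PHLDA1, with log2 fold changes of −0.78 ± 0.25, −0.68 ± 0.23 and −0.45 ± 0.16. Of this list, 1 was higher and 4 lower at an unadjusted p of 0.05 with the labels. With R02046 exchanged, 0 of this list were called by edgeR. At an unadjusted p of 0.05, 4 were then higher and 6 lower, where 16.5% of all tested genes passed. Of the targets, 1 was higher and 3 lower with the labels at that level, which 5.14% of all tested genes passed in either direction. TNFSF10, IL6 and MMP3 had log2 fold changes of −0.73 ± 0.21, −1.31 ± 0.40 and −0.59 ± 0.20, each at an adjusted p of 0.877 by edgeR. IL6 codes for a cytokine whose gene is a known AP-1 target, and it was lower with MRS2578 in the 3 donors other than R02046 and higher in R02046 as labelled. With R02046 exchanged, CCND1, the cell cycle gene for cyclin D1, was the 1 target called. It rose, with a log2 fold change of 0.72 ± 0.12 and an adjusted p of 0.0495 by edgeR. In that fit 0.618% of all tested genes were called in either direction and 0.0989% were raised. At an unadjusted p of 0.05, 3 targets were higher and 5 lower, where 16.5% of all tested genes passed. CCND1 is named for being the single call, after its values were seen. The median log2 fold change with the labels was −0.15 for the partners, −0.01 for the upstream genes, 0.05 for the other immediate early genes and −0.14 for the targets, against −0.01 over all tested genes.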

How the data were processed

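RNA was measured in 8 libraries (directional, poly(A), Illumina NovaSeq), 1 for each of 4 donors and 2 conditions. The authors trimmed and aligned the reads to Mmul_10, and deposited whole-number counts per Ensembl gene, counted with HTSeq, without normalization. The submitters' processing notes name Trimmomatic 0.30, TopHat2 2.0.14, SAMtools 1.3 and HTSeq 0.6.1p1, whereas the study's methods name fastp and STAR for trimming and alignment, so the tools behind the counts are uncertain. The strand setting and the annotation release are not given in the sources used here.

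The sample labels gave each library's condition and donor. The labels give 10 ng/mL M-CSF, from which the study's methods differ. No pair of libraries was a duplicate, with a lowest chi-square per degree of freedom of 19.6. Counts were analysed in R 4.3.3 with edgeR 4.0.16: filterByExpr with a minimum count of 10, TMM, and the quasi-likelihood F-test, in which the donor was a block, since the libraries of a donor come from 1 animal. Within a donor, the deviations of both libraries from their group means correlated at 0.458 to 0.602 across genes. The p values were adjusted by Benjamini-Hochberg over all tested genes, with a threshold of 0.05, and the SE is the one implied by the test statistic. Each donor gave 1 library per condition. With the donor as a block, p-values weigh the difference between conditions against its spread over these donors. That spread includes variation between cultures and libraries. Log2 CPM used a prior count of 2. The script was tested on simulated data. Alternatives were DESeq2 1.42.0 (size factors and Wald test), edgeR's likelihood ratio test, no filter, at least 10 counts in every library, no block, each donor left out, and the exchange of R02046. Gene models and promoters came from NCBI's annotation of Mmul_10.

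The members and the gene lists were chosen with earlier results of these data known. Beside the members, at most 3 genes of each list were named, by smallest unadjusted p, with NFE2L2 and CCND1 added for their calls with R02046 exchanged, and the 3 most correlated genes for FOS and for the transcript with the highest mean CPM in each family.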

Additional observations from a re-analysis of the deposited data

Results flagged for a closer look

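In each of the 20 groups of 4 libraries, 1 per transcript and condition, the lowest and the highest library were compared with the rest by Dixon's ratio, which by chance alone marks about 1 group in 20. It marked 2 groups. FOSL2 in the uLPS library of R14143 had a log2 CPM of 7.11, or 138 CPM, while the nearest of the other uLPS libraries was at 6.19, for a ratio of 0.844, above the 95% critical value. The summed fibroblast markers of the same library were 1191 CPM, against 90.2 to 369 CPM in the other uLPS libraries, and their part in the FOSL2 level was not tested. EGR2 in the R02046 library labelled uLPS had a log2 CPM of −0.058, or 0.854 CPM, while the nearest of the other uLPS libraries was at 2.82, for a ratio of 0.851. This is 1 of the 2 libraries of the donor whose labels are in doubt, and with the R02046 libraries exchanged the value falls in the group with MRS2578, where R14143 had 1.17 CPM.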

How the results depend on the processing

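With the labels, 0 genes and 0 of the 10 transcripts were called by the quasi-likelihood test. The count of genes was 1 by DESeq2's Wald test and 5 by edgeR's likelihood ratio test, none of them among the 10. With R02046 exchanged, 75 genes were called, 616 by the likelihood ratio test, 583 by DESeq2's Wald test and 39 by edgeR's earlier quasi-likelihood estimation, which was added after seeing the data. The transcripts among them numbered 1, 2, 2 and 1. Without the block, 0 genes were called under either assignment, and FOSL2 with R02046 exchanged was at −0.071. Leaving out 1 donor, under either assignment, gave 0 to 919 genes and 0 to 2 of the transcripts, and with R02046 exchanged the counts were 0 without R07110, 5 without R12016 and 919 without R14143. FOS, FOSB, JUN and JUNB kept their direction under every alternative run, with 0.35 to 1.43, 2.32 to 4.56, 0.26 to 0.76 and −0.48 to −0.21 when 1 donor was left out. FOSL2 turned to −0.014 with R02046 exchanged, also by the likelihood ratio test and the earlier estimation, and to −0.020 by DESeq2, and EGR3 turned to 0.11 by DESeq2 and 0.091 by the likelihood ratio test with the labels. Leaving out 1 donor under either assignment gave log2 fold changes of −0.019 to 0.60 for FOSL1, −0.15 to 0.32 for FOSL2, −0.55 to 0.14 for JUND, −0.75 to 0.25 for EGR1, −1.74 to 0.17 for EGR2 and −1.22 to 0.25 for EGR3. The cause of these turns was not tested. FOSB, EGR2 and EGR3 drop out where at least 10 counts are asked of every library. Depth limits EGR3 and FOSB most, with 1 to 79 and 4 to 440 reads per library.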
